A study of Rattus norvegicus with 15 samples.

Results

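The miR-30 guide strands are the mature microRNAs (miRNAs) miR-30a, miR-30b-5p, miR-30c, miR-30d and miR-30e, which share 1 seed. They were chosen by their names on the array, and they are 5 of the 350 rat miRNAs measured and 5 of the 134 tested. Rats had been fed a long-term ethanol diet (EtOH) or, as controls, a carbohydrate diet in matched amounts (CHO), and both kinds of rats underwent partial hepatectomy (PHx), the surgical removal of part of the liver, after which the rest grows back. Liver tissue was taken at the operation and at 1, 6, 12 or 24 h after it. The study could thus follow miRNA levels by diet and by time of regeneration. Each of the 15 single-colour arrays held RNA pooled from 4 animals. The groups were EtOH before PHx with 3 pools, CHO before PHx with 4 pools, and EtOH and CHO after PHx with 1 pool each at each of the 4 times. No group was sham-operated, so effects of the operation and of regrowth cannot be told apart. The labels name no strain, sex, age, ethanol dose or length of feeding. For 7 of the 8 pools the same animals were measured before and after PHx, necessarily on different pieces of liver. The 1 h and 6 h pools of each diet shared 1 animal. Because RNA was pooled, the p-values do not measure the spread between single animals. Nor do they measure only the spread between pools, since after PHx no diet had more than 1 pool at a time. The main fit used 1 diet difference for all times after PHx, so departures of single times from it counted as noise. That fit also treated arrays of the same animals as independent.

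A miRNA hairpin yields a guide strand, which an Argonaute protein holds and pairs through its seed with matching sites in messenger RNAs, and a passenger strand, which is mostly degraded. Guide strands with the same seed can repress the same messenger RNAs, so a family is read by the sum of its members as well as by each one. The miR-30 family is broadly expressed and abundant in epithelial tissues including liver, where miR-30c is known from mice to repress microsomal triglyceride transfer protein, which loads lipid onto lipoproteins. The family is also known for the repression of connective tissue growth factor and of the autophagy protein Beclin 1.

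The mature sequences are shown because they set what the family shares and how closely related the RNAs are that its probes have to tell apart. RefSeq (rat build GRCr8) held 3 of the 5 members, and they are printed 5′ to 3′ with the seed (bases 2 to 8) in capitals, beside miR-384-5p, which shares that seed.
miR-30a: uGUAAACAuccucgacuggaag
miR-30c: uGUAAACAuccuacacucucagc
miR-30e: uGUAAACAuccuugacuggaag
miR-384-5p: uGUAAACAauuccuaggcaaugu
Among the 724 mature rat sequences of that table, these 4 names carried the seed. Counted from 1 at the 5′ end, miR-30a and miR-30e differed over 22 bases by 1 substitution, C13U with the miR-30a base first. Over 22 bases miR-30a and miR-30c differed at 5 positions, the first of them position 13, while miR-30a and miR-384-5p differed at 10, starting at position 9. MiR-384-5p was detected on 0 of the 15 arrays, and each of the 5 guide strands was detected on all 15.

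The guide strands come from 3 pairs of neighbouring hairpins. MiR-30e lay at chr5:139637504-139637525 on the minus strand and 1 copy of miR-30c (hairpin Mir30c1) at chr5:139634505-139634527 on the same strand, with 2906 bases between the hairpins. Both hairpins lay within Nfyc, the gene of a subunit of the transcription factor NF-Y. MiR-30a lay at chr9:33233946-33233967 and the other copy of miR-30c (Mir30c2) at chr9:33253695-33253717, both on the plus strand. Mir30b and Mir30d were neighbours on chromosome 7. Mature miR-30c is the same RNA from both copies, so its signal is their sum.

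Between 108 and 131 miRNAs were detected per array. The 3 hepatocyte markers, miR-122, miR-192 and miR-194, were detected on every array, with a summed signal of 35965 to 41952 in EtOH before PHx, 36154 to 42878 in CHO before PHx, 38342 to 46363 in EtOH after PHx and 36651 to 41243 in CHO after PHx. One array stood apart: on EtOH before PHx replicate 3 the median coefficient of variation between spots of a probe was 36.6%, against 6.75% to 8.62% on the other 14, and its 75th percentile of raw signal was 236.5, against 288 to 515.5. Differences of the members that this array moved by over 1.5 times are given with it and without it. In unsorted liver tissue, fewer cells of a type and less RNA per cell cannot be told apart.

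Signals are background-subtracted spot intensities, averaged per probe and scaled so that every array had the same 75th percentile. A log2 difference is a difference of these scaled signals, with the standard error (SE) of a limma fit over all arrays, and a miRNA counts as called where its Benjamini-Hochberg adjusted p over the 134 tested miRNAs was under 0.05. Each guide strand had 2 probes, and the brighter one stands for it. The scale is not free of the family: the percentile fell exactly on the miR-30b-5p probe on 5 arrays and on the miR-30c probe on 1, so those values equal 393 by construction.

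The guide strands other than miR-30b-5p varied less over the arrays than the median tested miRNA, and no guide strand was called in any of the 8 comparisons of the fit described here. Over the 15 arrays the standard deviation of the log2 signal was 0.12 for miR-30a, 0.25 for miR-30b-5p, and 0.13 for miR-30c, miR-30d and miR-30e. The median over the 5 was 0.13, against 0.20 over all 134 tested miRNAs. Ranked from the smallest spread, miR-30a was 17th, miR-30d 24th, miR-30e 25th, miR-30c 26th and miR-30b-5p 95th of 134. Without EtOH before PHx replicate 3, miR-30a ranked 3rd with a standard deviation of 0.06 and miR-30b-5p 35th with 0.13, so 1 array set much of the spread of both. From the highest to the lowest of the 10 conditions of diet and time, mean signals spanned 1.25-fold for miR-30a, 1.49-fold for miR-30b-5p, 1.20-fold for miR-30c, 1.24-fold for miR-30d and 1.34-fold for miR-30e.

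**Figure D1:**
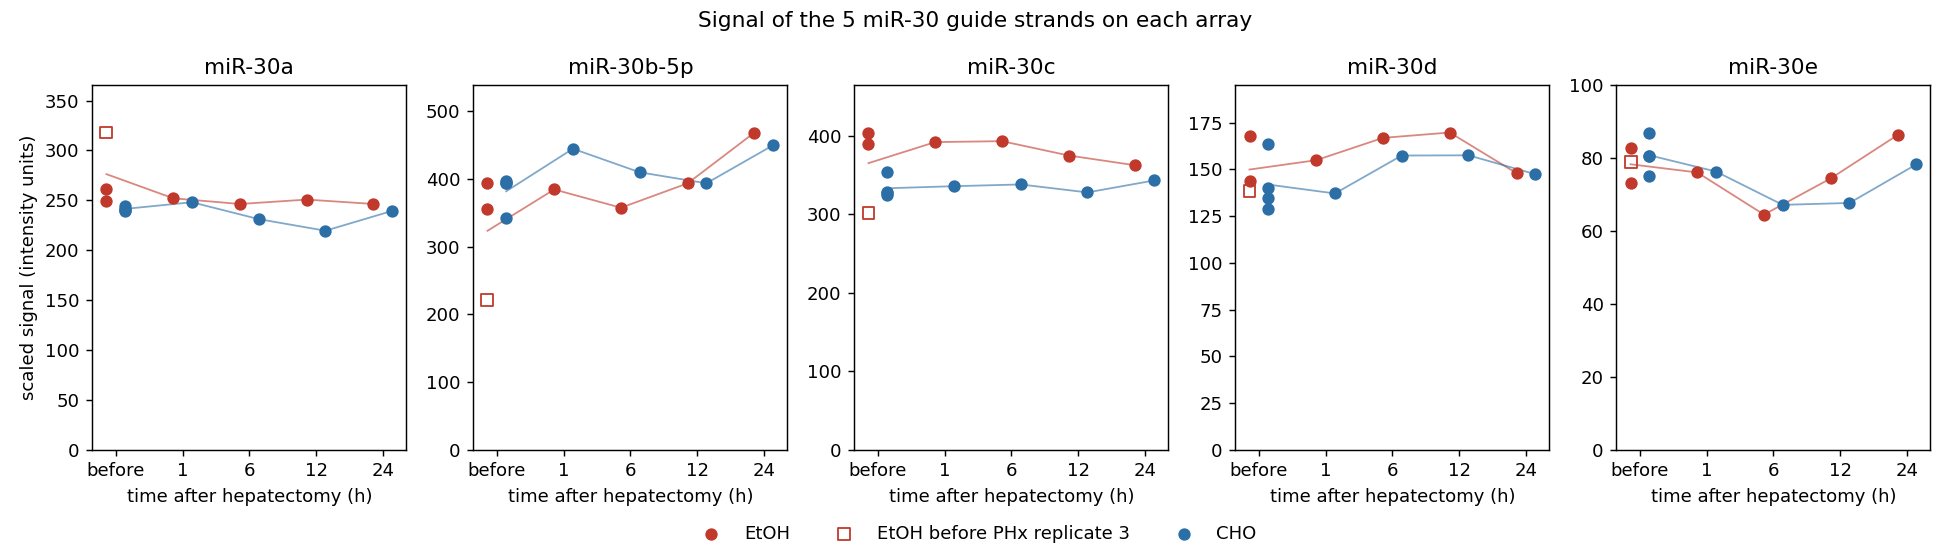
Scaled signal (intensity units, linear axis from 0) of each guide strand on every array, by time after hepatectomy, with EtOH left of CHO. Lines join group means over time and the open square is EtOH before PHx replicate 3, which is the highest point of miR-30a at 318 and the lowest of miR-30b-5p at 221. After hepatectomy miR-30c lies higher in EtOH at all 4 times, and miR-30e is lowest at 6 h on this scale.

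MiR-30c showed the most regular separation by diet. Before PHx its scaled signal was 390.1, 404 and 302 in the EtOH pools (replicates 1, 2 and 3), against 325, 328, 354 and 327 in the CHO pools. The first 2 EtOH pools lay above every CHO pool and replicate 3 lay below every one, so the groups overlapped. The mean was 365 ± 55.6 in EtOH (SD, n = 3) and 333 ± 13.5 in CHO (SD, n = 4), a log2 difference of 0.12 (SE 0.10, 95% interval -0.09 to 0.34, adjusted p = 0.451). Without replicate 3 the difference was 0.25 (SE 0.07, adjusted p = 0.0263), which is past the threshold, and the EtOH mean was 397. Within slide 1 it was past the threshold too (0.28, SE 0.06, adjusted p = 0.0261), whereas on slide 2, where the EtOH array before PHx is replicate 3, the difference was -0.17 (SE 0.16, adjusted p = 0.549). The dimmer miR-30c probe gave 0.11 (SE 0.10).

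After PHx miR-30c had signals of 392.2, 393, 375 and 363 in EtOH at 1, 6, 12 and 24 h, against 336, 338, 328 and 343 in CHO. EtOH was higher at 4 of 4 times, by 0.08 to 0.22 on the log2 scale. The groups did not overlap, though such separation was not counted over all tested miRNAs. The fit gave 0.18 (SE 0.09, interval -0.02 to 0.38, adjusted p = 0.211), a fold of 1.13. Without EtOH before PHx replicate 3, an array that enters this difference only through the estimate of the spread, the same 0.18 had an SE of 0.05 and an adjusted p of 0.0414. Within slide 1 the difference was 0.22 (adjusted p = 0.0530) and within slide 2 it was 0.14 (adjusted p = 0.753). The diet difference after PHx minus that before was 0.06 (SE 0.13, interval -0.24 to 0.35, adjusted p = 0.932), and -0.08 (SE 0.09) without that array. The erythroid marker sum (2 of 2 miRNAs tested) also separated by diet after PHx without overlap, with 873 to 1209.95 in EtOH and 355 to 847 in CHO. Of its members miR-451 differed by 0.73 (SE 0.23, adjusted p = 0.0631) and miR-144 by 0.16 (SE 0.17), and their part in the miR-30c difference was not tested.

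MiR-30a, which differs from miR-30e at 1 base, was also higher in EtOH before PHx without being called. Its signal was 261, 249.7 and 318 in the EtOH pools, against 239, 240.3, 242 and 244 in the CHO pools. All 3 EtOH pools lay above all 4 CHO pools, whose range was narrow, and replicate 3 was the highest of the 15 arrays. How many tested miRNAs separated in this way before PHx was not counted. The means were 276 ± 36.6 in EtOH (SD, n = 3) and 241 ± 2.05 in CHO (SD, n = 4), with a log2 difference of 0.19 (SE 0.08, interval 0.00 to 0.37, adjusted p = 0.187). Without replicate 3 the difference was 0.08 (SE 0.06, adjusted p = 0.426), and the dimmer miR-30a probe gave 0.03 (SE 0.08). After PHx the signal was 252, 246, 251 and 246 in EtOH at 1, 6, 12 and 24 h, against 248, 231, 219.5 and 239 in CHO. EtOH was higher at 4 of 4 times, by 0.02 to 0.19, but the ranges of the groups overlapped and the fitted difference was 0.09 (SE 0.08, interval -0.09 to 0.26, adjusted p = 0.503).

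MiR-30d, whose hairpin neighbours that of miR-30b, was also higher in EtOH on average without being called. Its signal before PHx was 168, 144 and 138 in EtOH, against 140.1, 129, 164 and 135 in CHO, and the groups overlapped. The difference was 0.08 (SE 0.10, interval -0.13 to 0.29, adjusted p = 0.622). It was 0.14 (SE 0.10, adjusted p = 0.425) without replicate 3 and 0.20 (SE 0.10) on the dimmer probe. Within slide 1 it was 0.21 (adjusted p = 0.187) and within slide 2 it was -0.10. On slide 2 the only EtOH array before PHx is replicate 3, where the brighter probe had a spot-to-spot coefficient of variation of 53.6%. The dimmer probe had its highest signal of the 15 arrays there (152.6), so the direction on slide 2 rests on that array and probe. After PHx it was 155, 167, 169.7 and 148 in EtOH at 1, 6, 12 and 24 h, against 137, 157, 157 and 147 in CHO. EtOH was higher at 4 of 4 times, by 0.01 to 0.18, with a fitted difference of 0.09 (SE 0.09, interval -0.10 to 0.29, adjusted p = 0.526).

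MiR-30b-5p ran the other way, and before PHx its difference rested on 1 array. Its signal before PHx was 393, 355 and 221 in EtOH, against 397, 393, 342 and 393 in CHO. Replicate 3 of EtOH was far below the rest, with a spot-to-spot coefficient of variation of 75.5% for this probe. The means were 323 ± 90.5 in EtOH (SD, n = 3) and 382 ± 26.1 in CHO (SD, n = 4), with a log2 difference of -0.28 (SE 0.16, interval -0.64 to 0.08, adjusted p = 0.315). Without replicate 3 it was -0.03 (SE 0.09, adjusted p = 0.878), and the dimmer probe gave 0.01 (SE 0.11). Within slide 1 it was -0.08 (adjusted p = 0.466) and within slide 2, with replicate 3 as the EtOH array before PHx, -0.73 (adjusted p = 0.0714). After PHx the signal was 384, 357, 393 and 468 in EtOH at 1, 6, 12 and 24 h, against 444, 409.7, 393 and 449.7 in CHO. EtOH was higher at 1 of 4 times (24 h) and lower at 1 and 6 h. At 12 h this probe was the scaling percentile on both arrays, so their values are equal by construction. The fitted difference, which includes that tie, was -0.09 (SE 0.15, interval -0.42 to 0.25, adjusted p = 0.709). Within slide 1 this difference was -0.20 (SE 0.07, adjusted p = 0.0984) and within slide 2 it was 0.03 (SE 0.14). The dimmer probe gave -0.15 (SE 0.10) after PHx.

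MiR-30e showed little separation by diet. Its signal before PHx was 82.8, 73.2 and 79.1 in EtOH, against 75.02, 80.6, 80.6 and 87.1 in CHO. The groups overlapped, and the difference was -0.04 (SE 0.08, interval -0.21 to 0.13, adjusted p = 0.755). After PHx EtOH was higher at 2 of 4 times and the difference was 0.05 (SE 0.07, interval -0.10 to 0.21, adjusted p = 0.705).

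The family's diet differences were set beside those of all tested miRNAs. Before PHx 0 of 5 guide strands passed limma's adjusted threshold and 0 had an unadjusted p under 0.05, where 21 of 134 tested miRNAs (15.7%) passed and 35 had such an unadjusted p. After PHx 0 of 5 passed and 0 had an unadjusted p under 0.05, where 10 of 134 (7.46%) passed and 41 had one. For the difference between the diet effects after and before PHx, 0 of 134 passed (0%), with 9 at an unadjusted p under 0.05 and none of them a guide strand. That difference was -0.10 for miR-30a (SE 0.12), 0.19 for miR-30b-5p (SE 0.22), 0.01 for miR-30d (SE 0.13) and 0.10 for miR-30e (SE 0.11). Without EtOH before PHx replicate 3 it was 0.01, -0.06, -0.04 and 0.11, in the same order. The median log2 difference of the 5 was 0.08 before PHx and 0.09 after, against -0.08 and -0.05 over all tested miRNAs. Without scaling between arrays the median of all tested miRNAs before PHx was -0.53, and miR-30a, miR-30c and miR-30d, above 0 with scaling, were then at -0.35, -0.41 and -0.45. With normexp background correction that median was 0.19, and miR-30c and miR-30d lay at -0.06 and -0.03 relative to it. In the reported fit the 5 had a median absolute difference of 0.12 before PHx and 0.09 after, against 0.15 and 0.14 over all tested. Before PHx the summed signals of 4 of 5 lists of markers of other cells were lower in EtOH, with ranges that did not overlap. The EtOH ranges include replicate 3. How many tested miRNAs separated in this way was not counted, and of the 21 called before PHx 17 were lower in EtOH. The endothelial sum (2 of 2 miRNAs tested) was 1064 to 1133 in EtOH and 1209.9 to 1299.6 in CHO, and the stellate and mesenchymal sum (5 of 5 tested) was 525 to 594 in EtOH and 617 to 668 in CHO. The leukocyte sum (4 of 5 tested) was 299 to 315 in EtOH and 327 to 371 in CHO, and the biliary sum (3 of 5 tested) was 52.4 to 60.6 in EtOH and 72.2 to 88.1 in CHO. The erythroid sum overlapped, with 629 to 898 in EtOH and 618 to 1230 in CHO. Single markers did not all follow their sums: miR-145 of the stellate list differed by 0.24 (SE 0.16) and miR-223 of the leukocyte list by 0.03 (SE 0.12). Of the markers, miR-142-5p, miR-200c and miR-141 were detected on 0 arrays and were not tested, though the sums include their signals. MiR-144 and miR-429 were detected on 6 arrays each. The part of these other cells in the members' differences was not tested.

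**Figure D2:**
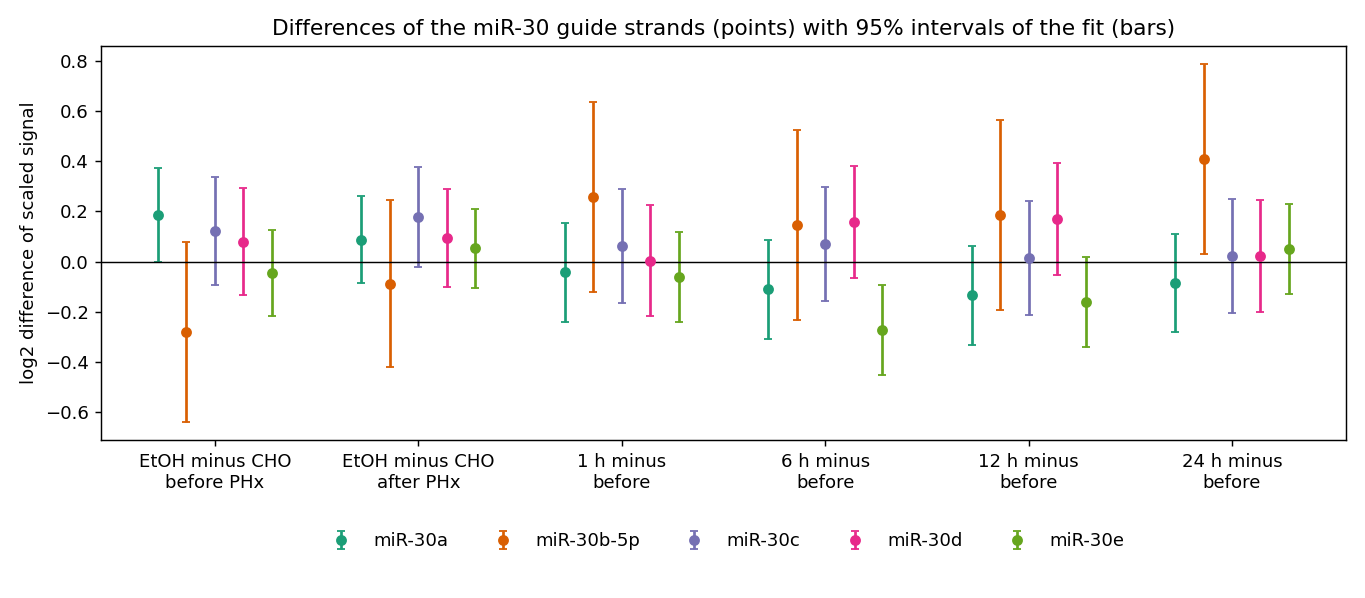
Log2 differences of scaled signal (points) with 95% intervals of the fit (bars) for the 5 guide strands in 6 comparisons. Most intervals span 0; the 6 h interval of miR-30e (-0.45 to -0.09) and the 24 h interval of miR-30b-5p (0.03 to 0.79) do not, and neither was called after adjustment.

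After hepatectomy miR-30e at 6 h had the smallest unadjusted limma p of the members against before PHx. At 6 h its signal was 64.5 in EtOH and 67.2 in CHO, below all 7 arrays before PHx, which ran from 73.2 to 82.8 in EtOH and from 75.02 to 87.1 in CHO. At 1 h it was 76.1 in EtOH and 76.4 in CHO, at 12 h 74.5 and 67.7, and at 24 h 86.4 and 78.3. On this scale the level was lowest at 6 h in both diets, though in CHO the 6 h and 12 h values were close. Scaled to the mean log2 signal of probes outside the family, the CHO level was lower at 12 h (63.3) than at 6 h (65.5). On the main scale, EtOH at 24 h lay above the EtOH pools before PHx, and CHO lay within the range of the CHO pools. Neither held on the scale of probes outside the family. There EtOH at 24 h (85.6) lay below the highest EtOH pool before PHx (87.9). CHO at 24 h (72.9) lay below the CHO pools before PHx (77.1 to 88.4). Relative to before PHx the log2 difference was -0.06 (SE 0.08) at 1 h, -0.27 (SE 0.08, interval -0.45 to -0.09) at 6 h, -0.16 (SE 0.08) at 12 h and 0.05 (SE 0.08) at 24 h. The 6 h difference, a fold of 0.8287, had an unadjusted limma p of 0.00659 and an adjusted p of 0.0883, so it was not called. The dimmer miR-30e probe gave -0.30 (SE 0.08) at 6 h. Within slide 1, which held the 1 h and 6 h pools before and after PHx, the 6 h difference was -0.24 (adjusted p = 0.119). With the pool of animals as a block it was -0.22 (SE 0.11, adjusted p = 0.523). Of the 4 leukocyte markers tested, miR-223 was called higher at 6 h (0.67, adjusted p = 0.0104), 12 h (0.92, adjusted p = 0.000633) and 24 h (0.60, adjusted p = 0.00875), and the other 3 were not called. The leukocyte sum was 335 to 367 in EtOH and 319 to 447 in CHO after PHx, against 299 to 315 in EtOH and 327 to 371 in CHO before PHx, and its part in the members' changes was not tested.

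Processing decided on which side of the threshold this 6 h value fell. With quantile normalization it was -0.38 (adjusted p = 0.0238), in the authors' deposited value table -0.40 (adjusted p = 0.0272), and with scaling to the mean log2 signal of probes outside the family -0.33 (adjusted p = 0.0477), all past the threshold. Under the leave-one-out fits the adjusted p ran from 0.0607 to 0.805 and under the other alternatives from 0.0238 to 0.998, and the difference stayed below 0 in all of them. In the same animals, miR-30e was lower after PHx in 6 of 7 pools by either probe. The change per pool was -0.12 at 1 h, -0.18 at 6 h and -0.09 at 12 h in EtOH, against 0.03 at 1 h, -0.26 at 6 h, -0.25 at 12 h and -0.15 at 24 h in CHO. The mean over the 4 times was -0.11 (SE 0.05, interval -0.23 to 0.00, adjusted p = 0.274).

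MiR-30b-5p was highest at 24 h in both diets on the scale used, which is pinned to its own probe on 5 arrays. There both diets had signals above all arrays before PHx: 468 in EtOH and 449.7 in CHO, against 221 to 393 in EtOH and 342 to 397 in CHO before PHx. Scaled to the mean log2 signal of probes outside the family, CHO was highest at 1 h (464) and had 419 at 24 h, against 418 for the highest array before PHx. The difference was 0.41 (SE 0.17, interval 0.03 to 0.79, adjusted p = 0.181), a fold of 1.33. It was 0.28 (SE 0.09, adjusted p = 0.0510) without EtOH before PHx replicate 3 and 0.32 (SE 0.12) on the dimmer probe, so its size shrank without that array and its direction did not turn. With slide as a block it was 0.62 (adjusted p = 0.0250) and within slide 2 it was 0.69 (adjusted p = 0.0218), both past the threshold and both with replicate 3 as the EtOH array of that slide before PHx. With the pool of animals as a block, in which only the CHO pool has a 24 h pair, it was 0.26 (SE 0.25, adjusted p = 0.914). The mean of both probes gave 0.37 (adjusted p = 0.0378). At the other times miR-30b-5p differed from before PHx by 0.26 at 1 h, 0.15 at 6 h and 0.19 at 12 h (SE 0.17 each). Without replicate 3 these were 0.13, 0.02 and 0.06 (SE 0.09 each). Its values after minus before PHx in the same animals were above 0 in 6 of 7 pools, from -0.03 to 0.83, and the 0.83 came from the pool of replicate 3. For the mean over times the difference was 0.25 (SE 0.11, interval 0.00 to 0.49, adjusted p = 0.235), and 0.12 (SE 0.06, adjusted p = 0.261) without replicate 3.

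The other members moved less with time. MiR-30a was below its level before PHx at every time by -0.04, -0.11, -0.13 and -0.08 at 1, 6, 12 and 24 h (SE 0.09 each), with adjusted p-values from 0.527 to 0.980. Without EtOH before PHx replicate 3 these were 0.01, -0.06, -0.08 and -0.03 (SE 0.06 each), and the dimmer probe gave 0.06, -0.07, -0.07 and 0.10 (SE 0.08 each), so the direction turned at 1 h in both and at 24 h on that probe. It was lower after PHx in 6 of 7 pools on the brighter probe but in 4 of 7 on the dimmer one. MiR-30c differed by 0.06, 0.07, 0.01 and 0.02 (SE 0.10 each), from -0.05 to 0.00 without replicate 3, and was higher in 5 of 7 pools. MiR-30d differed by 0.00, 0.16, 0.17 and 0.02 (SE 0.10 each), with the largest values at 6 and 12 h, adjusted p = 0.524 and 0.449, and was higher in 4 of 7 pools. Without replicate 3 its differences ran from -0.02 to 0.14. The 95% intervals of these 3 members over the 4 times lay between -0.33 and 0.39. For the mean over times miR-30a, miR-30c and miR-30d differed by -0.09, 0.04 and 0.09 (SE 0.06, 0.07 and 0.07). Without replicate 3 these means were -0.04, -0.02 and 0.06.

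At 6 h, 0 of 5 guide strands passed limma's adjusted threshold and 1, miR-30e, had an unadjusted p under 0.05, where 6 of 134 (4.48%) passed and 21 had one. At 24 h, 0 of 5 passed and 1, miR-30b-5p, had one, where 18 of 134 (13.4%) passed and 30 had one. At 12 h 0 of 5 passed and 0 had one, where 8 of 134 (5.97%) passed and 21 had one. At 1 h, 0 of 134 passed (0%), with 4 at an unadjusted p under 0.05 and no guide strand among them. For the mean over times, 0 of 5 passed and 1, miR-30b-5p, had an unadjusted p under 0.05, where 9 of 134 (6.72%) passed and 27 had one. The medians of the 5 guide strands were 0.00, 0.07, 0.01 and 0.02 at 1, 6, 12 and 24 h, against 0.00, 0.07, 0.06 and 0.02 over all tested miRNAs.

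Put in order of level, most neighbouring conditions lay closer than the standard deviation of the arrays before PHx, which includes EtOH before PHx replicate 3. That standard deviation, pooled within diets on the log2 scale, was 0.29 for miR-30b-5p and 0.15 for miR-30c. In the CHO pools alone it was 0.10 and 0.06. The gaps were not counted again without that replicate. For miR-30a the order ran from EtOH before PHx (276) to CHO at 12 h (219.5), and of the 9 gaps between neighbours 1 exceeded the standard deviation of the arrays before PHx, that between EtOH before PHx and EtOH at 1 h (0.12, against 0.12 on the log2 scale). That gap rests on replicate 3, without which EtOH before PHx averaged 255, against 252 at EtOH 1 h. For miR-30e it ran from EtOH at 24 h (86.4) to EtOH at 6 h (64.5), and 2 of 9 gaps exceeded that spread of 0.09: EtOH at 24 h over CHO before PHx (0.10) and EtOH at 12 h over CHO at 12 h (0.14). For miR-30b-5p, from EtOH at 24 h (468) to EtOH before PHx (323), for miR-30c, from EtOH at 6 h (393) to CHO at 12 h (328), and for miR-30d, from EtOH at 12 h (169.7) to CHO at 1 h (137), 0 of 9 gaps did. Without replicate 3, miR-30b-5p averaged 374 in EtOH before PHx, above EtOH at 6 h (357). For miR-30c the 5 EtOH conditions took the first 5 places and the 5 CHO conditions the other places. How many tested miRNAs split by diet in this way was not counted.

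The 2 probes of each guide strand gave a check within each array. On 14 arrays the ratio of the brighter over the dimmer probe was 1.52 to 1.72 for miR-30a, 2.64 to 3.08 for miR-30b-5p, 2.53 to 3.103 for miR-30c, 1.175 to 1.28 for miR-30d and 2.47 to 2.61 for miR-30e. On EtOH before PHx replicate 3 it was 2.38, 1.49, 2.72, 0.907 and 2.51, in the same order. That array thus lay outside the range of the others for miR-30a, miR-30b-5p and miR-30d, and inside it for miR-30c and miR-30e. The miR-30c ratio also separated the slides: it was 2.86 to 3.103 on the 8 arrays of slide 1 and 2.53 to 2.71 on the other 6 arrays of slide 2. No other member's ratio separated the slides without overlap.

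**Figure D3:**
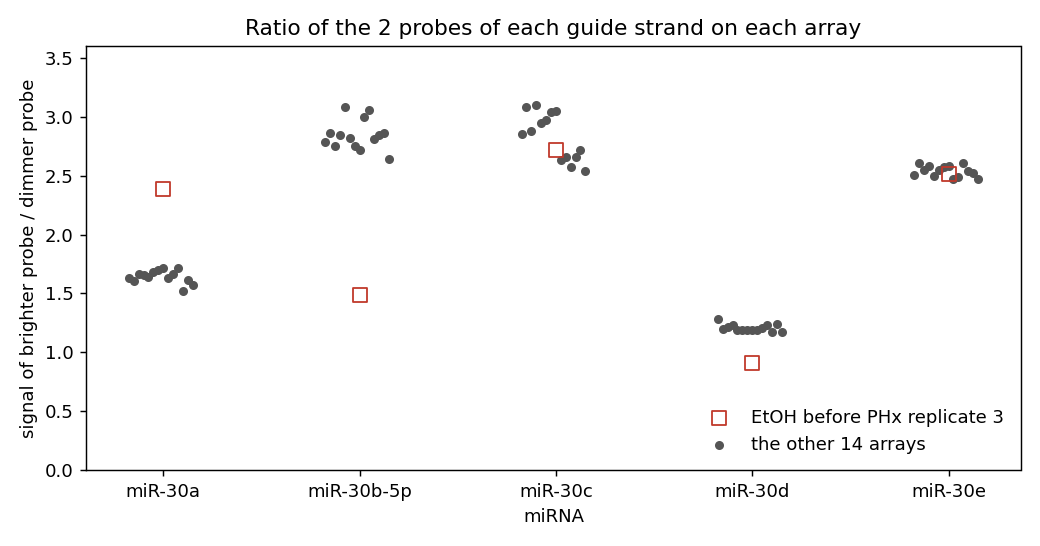
Ratio of the brighter over the dimmer probe (linear axis from 0) for each guide strand on each array. Open squares mark EtOH before PHx replicate 3, which lies at 2.38 for miR-30a and 1.49 for miR-30b-5p, outside the ranges of the other 14 arrays (filled points).

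The members did not rise and fall as one. Over the 15 arrays, which share animals, slides and the scaling, the Pearson correlation of log2 signals was highest between miR-30c and miR-30d at 0.59 (0.56 without EtOH before PHx replicate 3). Between miR-30a and miR-30b-5p it was -0.77 with that array and -0.08 without it, and between miR-30a and miR-30c it was -0.12 with it and 0.67 without it. MiR-30c and miR-30e, whose hairpins both lie in Nfyc, had -0.18 and -0.14 without that array. MiR-30a and miR-30e, the closest pair by sequence, had 0.31 and 0.44 without it. Of the tested miRNAs outside the family, those most like its mean profile over the 15 arrays were miR-130a (r = 0.84), miR-34a (0.73), a target of p53, miR-210 (0.72), known for its induction by hypoxia, miR-365 (0.70) and miR-22 (0.69). Without that array the same 5 had 0.76, 0.75, 0.82, 0.52 and 0.70, so their order changed. On that array the centred log2 values behind the family mean ran from -0.79 (miR-30b-5p) to 0.36 (miR-30a). The ranking was not repeated without it, so whether these 5 then remain the most alike was not tested. The least alike were miR-181a (-0.76, and -0.74 without that array) and let-7e (-0.72 and -0.65).

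Of the 6 passenger strands of the miR-30 hairpins on the array, 3 met the detection minimum. MiR-30a* and miR-30e* were detected on all 15 arrays, miR-30c-1* on 4, and miR-30b-3p, miR-30c-2* and miR-30d* on 0. MiR-30e*, from the hairpin of miR-30e, had signals of 67.4 in EtOH and 57.3 in CHO at 6 h, against 54.6 to 63.8 and 57.6 to 67.7 before PHx. Its 6 h difference was 0.04 (SE 0.10, interval -0.17 to 0.25, adjusted p = 0.892), beside -0.27 for miR-30e; the difference between the strands was not tested. MiR-30a* was 0.15 higher in EtOH before PHx (SE 0.09, adjusted p = 0.320) and 0.17 higher after (SE 0.08, adjusted p = 0.180), beside 0.19 and 0.09 for miR-30a, and none of these was called.

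MiR-30c-1*, the passenger strand of Mir30c1, met that minimum only through the arrays at 6 and 12 h, so its levels are given as a description with no test. On its brightest probe it was not well above background on any of the 7 arrays before PHx or at 1 and 24 h. It was detected at 6 h with 13.1 in EtOH and 16.5 in CHO, and at 12 h with 9.49 in EtOH and 17.9 in CHO. As means of both diets, that is at least 1.51-fold higher at 6 h and at least 1.34-fold higher at 12 h than before PHx. These bounds set each dim array at the lowest signal it could detect or its own value. At 12 h EtOH (9.49) lay below the geometric mean limit before PHx (9.75), so that bound rests on the CHO array. The other 3 probes of this strand were detected on 0 arrays at 6 h, and 1 of them on the CHO array at 12 h. Mature miR-30c on the same arrays differed by 0.07 at 6 h and 0.01 at 12 h.

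Members of the miR-26 and let-7 families were not called either. The miR-26 guide strands, miR-26a and miR-26b, were -0.20 and -0.29 in EtOH relative to CHO before PHx (SE 0.07 and 0.09, adjusted p = 0.0619 and 0.0534), with unadjusted p under 0.05 for both. EtOH before PHx replicate 3 had the lowest miR-26b signal of the 15 arrays (779, spot-to-spot coefficient of variation 53.7%). Before PHx the other EtOH pools had 1018 and 976, and the CHO pools 1081 to 1157. The miR-26 differences without that array are not given. In the same comparison the 8 let-7 family members ran from -0.21 (let-7c) to 0.16 (let-7d). In the 3 comparisons of diet and the 5 of time, 0 of 2 miR-26 and 0 of 8 let-7 members were called by limma, where up to 15.7% of all tested miRNAs were (diet before PHx). Whether these families differ from miR-30 was not tested.

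**Figure D4:**
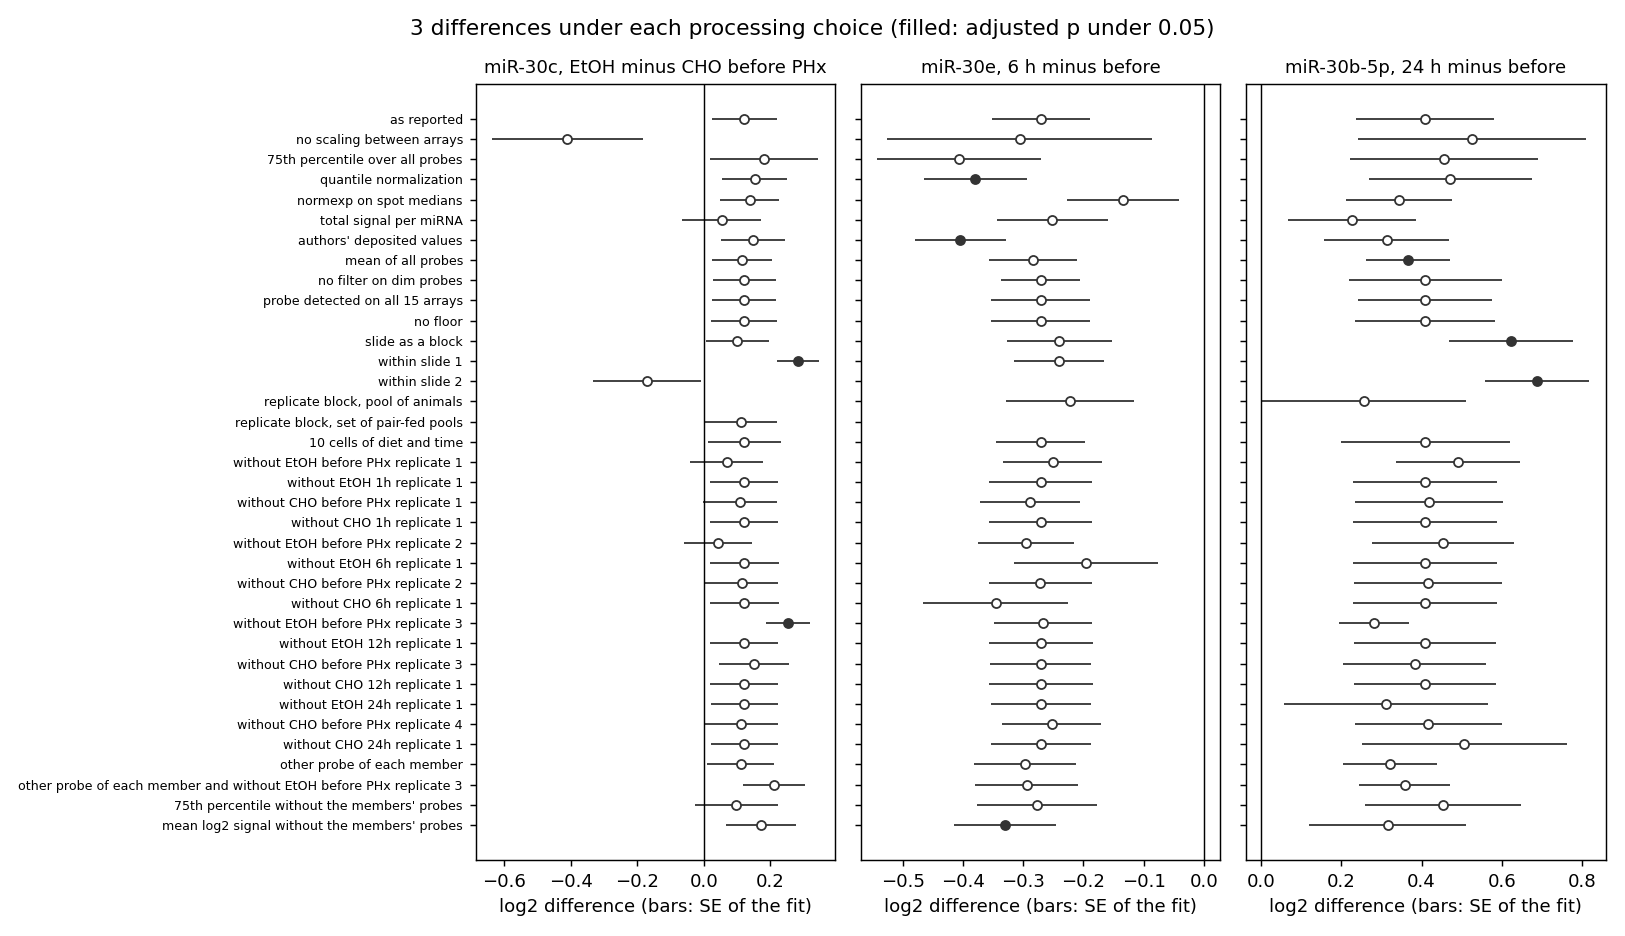
Log2 difference (points, bars: SE) of 3 results under each processing choice, with filled points where the adjusted p was under 0.05. MiR-30e at 6 h stays below 0 and miR-30b-5p at 24 h above 0 throughout, whereas miR-30c before hepatectomy lies below 0 without scaling (-0.41, where the median of all tested miRNAs was -0.53) and within slide 2 (-0.17).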

How the data were processed

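The members and lists were chosen with earlier results of these data known. The main values were spot intensities in the deposited scanner output, linear and already corrected for local background by Agilent Feature Extraction. The software's version reads 10.5.1.1 in the headers, while the submitters' processing notes name 10.7.3.1. A log2 table of the same arrays was also deposited by the authors. No source used here describes how it was normalized or centred. Its column medians ranged from 0.106 to 1.10, and it served as an alternative. Total RNA was labelled with Cy3, per the labels.

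Control spots and spots marked as outliers (2.38%) were left out. Each probe's spots were averaged. Arrays were scaled to a common 75th percentile of the 185 probes with at least a share of 0.5 of spots well above background on every array, then floored at 9.61 and put on the log2 scale. The brightest probe represented a miRNA, and miRNAs detected on at least 3 arrays were tested. The model was limma's (lmFit and eBayes, version 3.58.1, R 4.3.3) over 15 arrays, with terms for diet before, diet after and each time (8 residual degrees of freedom) and Benjamini-Hochberg adjustment over 134 miRNAs. The number of arrays limits the precision. The script was tested on simulated data. Alternatives changed the scaling, background correction, signal, probe choice, filter, floor, slide term, block, model or arrays used; normexp took spot medians in place of the planned spot means. All 5 members are named in every comparison; the 5 miRNAs with the highest r with the family mean and the 2 with the lowest are also named. Slides are those the file headers give: slide 1 held the 1 h and 6 h pools and slide 2 the 12 h and 24 h pools. Residuals of arrays of the same animals correlated with r from -0.10 to 0.24, and the pool of animals was a block in an alternative because the labels give the same animals before and after PHx. MiRNA sequences are from RefSeq (GRCr8).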

Additional observations from a re-analysis of the deposited data

Results flagged for a closer look

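In CHO before PHx replicate 3, miR-30b-5p lay at 342 while the other 3 CHO pools lay at 393 to 397, a gap that was 0.939 of the group's range, above Dixon's critical value for 4 samples. In the same array miR-30c lay at 354, above 325 to 328 in the other 3 pools, a gap of 0.881 of the range. MiR-30b-5p was itself the scaling percentile on 2 of the 4 CHO arrays, which sets both at 393. For 4 freely varying values, chance alone gives such a gap in about 1 in 20 groups. That rate does not apply to miR-30b-5p, with 2 of its 4 values fixed. The 5 groups examined share the same 4 arrays and their scaling, so they are not separate trials.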

How the results depend on the processing

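Of 1345 differences recomputed for the members, 1330 kept their side of the threshold and 15 passed it, and none that passed in either fit changed sign. Sign changes among uncalled differences numbered 122, up to 0.45 in size. In place of 0 called guide strands, diet before PHx had 2 without scaling between arrays (miR-30b-5p, -0.81, and miR-30e, -0.58, where the median of all tested miRNAs was -0.53) and 1 within slide 1. Quantile normalization called 1, miR-30e, at 6 h (-0.38), at 12 h (-0.46) and over the mean of times (-0.28); the authors' deposited values called 1, miR-30e, at 6 h and over the mean of times (-0.18). At 24 h miR-30b-5p made 1 call with the mean of all probes, with slide as a block and within slide 2, where it was also the 1 call over the mean of times (0.58). Leaving out each array in turn gave 0 to 1 calls: the 1 was miR-30c for diet before and for diet after PHx without EtOH before PHx replicate 3. Chosen after seeing the data, the other probe of each member and the 75th percentile without the members' probes called 0, and the mean log2 signal without them called 1, miR-30e at 6 h. The cause of these moves was not tested. The replicate block on the pool of animals (2 residual degrees of freedom) and that on the set of pair-fed pools called 0 guide strands, and the pool block took the count of all miRNAs called at 12 h to 3 from 8 and at 24 h to 0 from 18. Counts over all 134 miRNAs moved more: diet before PHx had 21 calls (4 higher, 17 lower) in the fit as reported, 76 (0 and 76) without scaling, 2 (1 and 1) with the percentile over all probes, 9 (4 and 5) with quantile normalization, 8 (5 and 3) with normexp, 37 within slide 1, 1 within slide 2 and 34 without EtOH before PHx replicate 3. Diet after PHx had 10 (4 higher, 6 lower), but 2 (0 and 2) without scaling, 6 (6 and 0) with the percentile over all probes and 6 (5 and 1) with quantile normalization; other settings ran from 0 with normexp to 28 with the other probes and without that replicate, 33 without that replicate alone, and 1 or 2 without the EtOH 1 h, EtOH 6 h, CHO 1 h, CHO 6 h or CHO before PHx replicate 1 or 2 array. The mean of times had 9 (9 and 0), but 15 (9 and 6) in the authors' values and 14 (7 and 7) with quantile normalization. At 24 h the 18 (16 and 2) became 6 (6 and 0) without scaling and 11 (11 and 0) with the percentile over all probes. At 6 h the 6 calls became 0 when the EtOH array of that time was left out and 1 when its CHO array was.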
